A study of Mus musculus with 15 samples.

Results

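Cholesterol synthesis was followed through 8 genes in RNA of the mouse thoracic aorta after 1 oral dose of a cyclooxygenase-2 inhibitor. The genes were taken by symbol from the table of gene counts: Hmgcs1, Idi1, Sqle, Lss, Cyp51 and Hsd17b7, which encode enzymes of the pathway, and Insig1 and Srebf2, which encode its regulators. Of 37681 rows in the table, 9 carried one of the 8 symbols, and 7 of the 8 genes had counts. No gene of the 8 encodes an uptake receptor, so uptake and transport genes were read from a separate list.

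The mice were adult male C57BL/6 wild-type animals of 10 to 12 weeks, gavaged with 100 microlitres each and killed 6 hours afterwards at Zeitgeber hour 11. One group received celecoxib at 30 mg/kg, one received rofecoxib at 10 mg/kg, and one received the carrier PEG-400 alone. Each group held 5 libraries, each from its own animal per the labels, and the labels name the agents and doses but no genetic change in any group. Both agents are selective cyclooxygenase-2 inhibitors, celecoxib a pyrazole with a sulfonamide and rofecoxib a furanone with a methylsulfone. The doses differ, so values of celecoxib against rofecoxib compare the groups as dosed and not the compounds at a matched dose.

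Cells make cholesterol from acetyl-CoA through mevalonate, isoprenoid units and squalene, and squalene is closed into lanosterol and trimmed to cholesterol. When sterol in the endoplasmic reticulum is low, the factor SREBP-2, encoded by Srebf2, is carried to the Golgi apparatus by its escort Scap and cut free, and it then turns on the synthesis genes together. Insig proteins hold the complex back when sterol is plentiful, and Insig1 is itself a target of the factor. In the artery wall, smooth muscle and endothelial cells and the surrounding fat can all carry out this synthesis.

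Among the members (the 8 genes followed), the 4 enzyme genes with the largest celecoxib to rofecoxib differences were Idi1, Hsd17b7, Sqle and Lss. The promoters of Idi1, Hsd17b7, Lss and Srebf2 are shown. Whether their motifs bear on the levels of these genes was not tested. The other of the 4, Sqle, is not shown here. Each window runs from 250 bases before to 50 bases after the RefSeq start (build GRCm38.p6), 5′ to 3′ on the gene's strand. Capitals mark CCAAT, the letters bound by NF-Y, and GGGCGG, those bound by Sp1, on either strand, so that ATTGG and CCGCCC are the same motifs read on the other strand. Idi1 lies at chr13:8885356-8885655 on the plus strand, Hsd17b7 at chr1:169969156-169969455 on the minus strand, Lss at chr10:76531355-76531654 on the plus strand and Srebf2 at chr15:82147019-82147318 on the plus strand.
Idi1: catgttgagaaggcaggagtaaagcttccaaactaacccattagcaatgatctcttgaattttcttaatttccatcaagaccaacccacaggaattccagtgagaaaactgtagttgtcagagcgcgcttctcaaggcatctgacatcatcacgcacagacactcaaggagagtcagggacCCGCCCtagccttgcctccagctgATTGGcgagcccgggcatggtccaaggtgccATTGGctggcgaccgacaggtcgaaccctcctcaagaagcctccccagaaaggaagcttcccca
Hsd17b7: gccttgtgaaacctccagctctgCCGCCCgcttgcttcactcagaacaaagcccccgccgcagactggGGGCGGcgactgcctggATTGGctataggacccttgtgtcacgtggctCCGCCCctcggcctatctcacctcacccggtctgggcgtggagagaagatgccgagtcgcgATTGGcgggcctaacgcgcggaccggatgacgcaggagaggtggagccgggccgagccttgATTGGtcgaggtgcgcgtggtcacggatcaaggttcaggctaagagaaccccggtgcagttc
Lss: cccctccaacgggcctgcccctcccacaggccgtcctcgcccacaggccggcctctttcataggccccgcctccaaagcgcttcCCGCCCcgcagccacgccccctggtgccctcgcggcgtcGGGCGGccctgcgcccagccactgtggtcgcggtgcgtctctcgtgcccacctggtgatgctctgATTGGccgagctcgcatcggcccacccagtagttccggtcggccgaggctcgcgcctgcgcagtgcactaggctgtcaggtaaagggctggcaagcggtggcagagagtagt
Srebf2: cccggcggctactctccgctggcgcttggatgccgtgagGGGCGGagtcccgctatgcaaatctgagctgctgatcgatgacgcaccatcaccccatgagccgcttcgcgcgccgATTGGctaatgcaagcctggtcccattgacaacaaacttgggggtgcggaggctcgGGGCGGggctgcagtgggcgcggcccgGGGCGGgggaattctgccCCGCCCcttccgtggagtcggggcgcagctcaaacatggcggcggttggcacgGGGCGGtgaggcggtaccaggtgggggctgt
All 7 members with a promoter entry held both motifs (12.8% of 32851 promoter windows did). CCAAT was found in 7 of 7 (37.4% of all windows) and GGGCGG in 7 of 7 (35.7%). On the gene's own strand alone CCAAT was found in 1 of 7 windows, that of Cyp51 (21.1% of all windows). The sterol element core TCACNCCAC, searched on both strands and free to overlap the other motifs, was found in 1 of 7 windows (1.24% of all), that of Hmgcs1. It is shown in capitals in the surrounding bases chr13:119690204-119690232 of the plus strand.
Hmgcs1: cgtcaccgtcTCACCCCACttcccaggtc
A match gives letters only and is no evidence of binding. Only these exact letters were searched, so a window without a match is not shown to lack a sterol element.

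Hmgcs1, the cytosolic synthase that makes HMG-CoA, could not be followed. Its 2 rows lay on unplaced sequence of chromosome 13 in mm9, at chr13_random:308409-326437 and chr13_random:114499-132527, and both were listed at 0 in all 15 libraries. All 371 rows on such unplaced sequences were at 0 in every library, so the 0 counts carry no information on the gene. The 7 remaining genes lay, in mm9, at chr13:8884650-8891843 (Idi1), chr15:59146430-59162949 (Sqle), chr10:75994131-76020085 (Lss), chr5:4080943-4104948 (Cyp51), chr1:171879464-171899574 (Hsd17b7), chr5:28397750-28405403 (Insig1) and chr15:81977494-82036008 (Srebf2). Each passed the filter on low counts.

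The order of levels was that of regulators over enzymes. As CPM, a count scaled by its library's total, per kilobase of the principal GENCODE transcript, the mean level over the 15 libraries was 29.9 for Srebf2, 16.05 for Insig1, 13.3 for Sqle, 7.68 for Cyp51, 5.36 for Lss, 2.94 for Idi1 and 1.89 for Hsd17b7. The ranges over libraries overlapped between every pair of neighbours in this order. Srebf2 spanned 20.5 to 38.6 CPM per kilobase, Insig1 12.4 to 22.2 and Sqle 8.64 to 21.5. Cyp51 spanned 5.09 to 13.0 and Lss 4.17 to 7.85, while Idi1 spanned 1.71 to 5.92 and Hsd17b7 1.19 to 4.20. Counts behind these levels ran from 158 for Idi1 in its lowest library to 5952 for Srebf2 in its highest.

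Deposited counts summed to between 30937046 and 30967115 per library, with 19158 to 19746 genes detected. Smooth muscle markers such as Myh11 and Acta2 summed to between 35620 and 51562 CPM, so the defining markers of the labelled tissue were present, and markers of nerve and fat were found too. The mean of the Schwann cell and sympathetic neuron lists was highest in celecoxib 4 (5.49 log2 CPM), rofecoxib 5 (4.97), vehicle 4 (4.44) and rofecoxib 3 (3.98). Rofecoxib 3 was high in the neuron list only, celecoxib 2 came next with 3.46, and no other library exceeded 2.45. In bulk tissue, fewer cells of a type and less RNA per cell cannot be told apart.

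Mean levels of 6 of 7 members were higher in celecoxib than in vehicle aortas, and those of 7 of 7 were lower in rofecoxib than in vehicle aortas. Group medians of rofecoxib and vehicle went both ways. The ratio of the rofecoxib to the vehicle median was 1.01 for Idi1, 1.03 for Sqle, 1.05 for Hsd17b7 and 1.08 for Srebf2. It was 0.986 for Lss, 0.897 for Cyp51 and 0.744 for Insig1. Idi1 averaged 11.7 ± 3.95 CPM in celecoxib, 6.51 ± 0.397 in rofecoxib and 8.56 ± 3.999 in vehicle (SD, n = 5 each), and Hsd17b7 11.4 ± 4.98, 6.69 ± 0.467 and 8.11 ± 3.64 in the same order. No member passed the threshold in any comparison. With the quasi-likelihood test of edgeR and Benjamini-Hochberg adjustment over all genes, 0 of 7 members and 0% of the 15134 genes tested were called in each of the 3 comparisons. The smallest adjusted p over all genes was 0.146 for celecoxib over vehicle, 0.896 for rofecoxib over vehicle and 0.526 for celecoxib over rofecoxib.

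**Figure D1:**
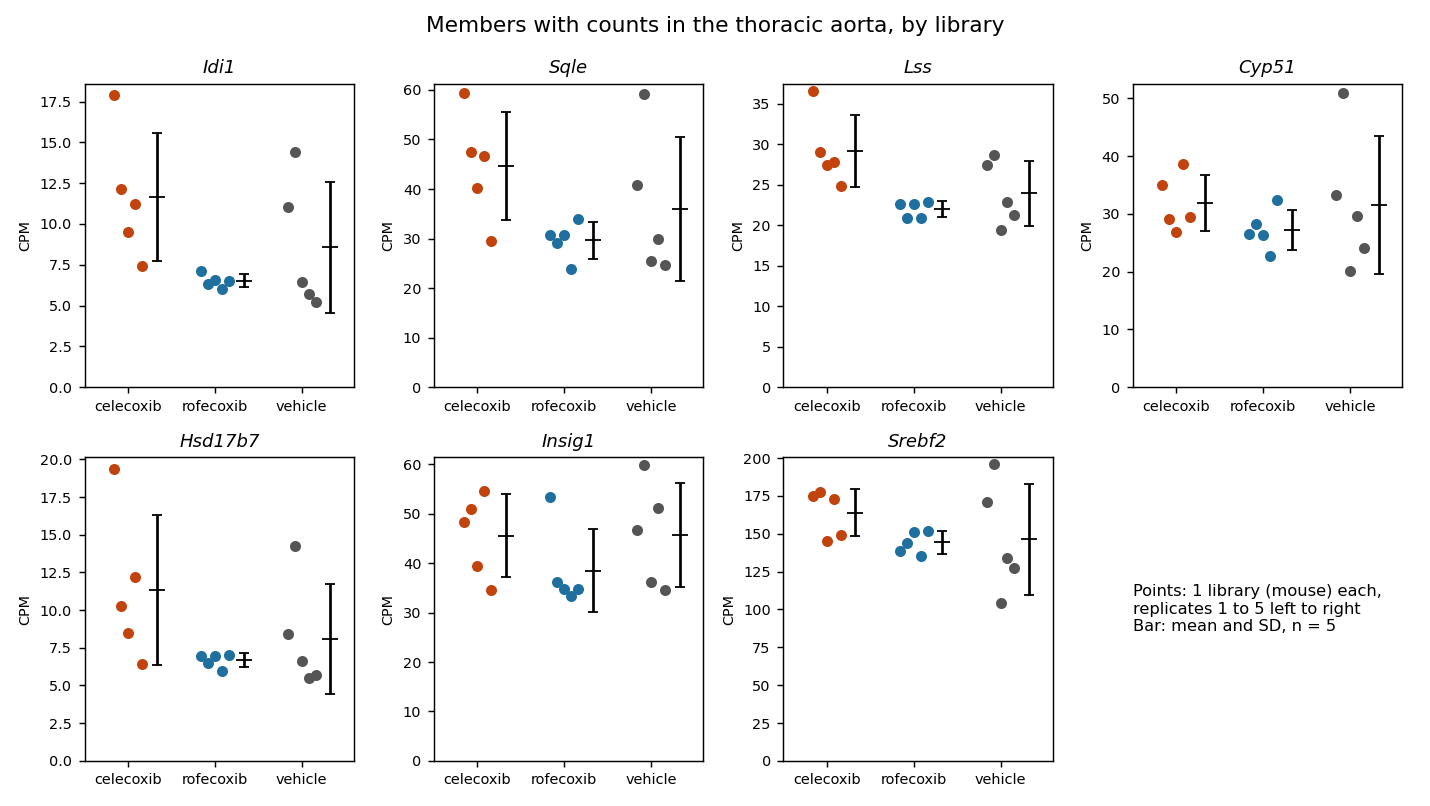
Level of each member in CPM (y axis from 0) in the celecoxib, rofecoxib and vehicle groups, 1 point per library with replicates 1 to 5 from left to right, and the mean and SD of 5 libraries as a bar. The rofecoxib points of Idi1 lie between 6.01 and 7.10 CPM, while vehicle 1 and vehicle 2 stand at 11.1 and 14.4 CPM, above the other 3 vehicle libraries.

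Idi1 encodes the isomerase that readies the isoprenoid unit for chain building. It had 17.9, 12.2, 9.52, 11.2 and 7.42 CPM in celecoxib libraries 1 to 5. In rofecoxib libraries 1 to 5 it had 7.10, 6.34, 6.59, 6.01 and 6.51 CPM. In vehicle libraries 1 to 5 it had 11.1, 14.4, 6.47, 5.71 and 5.19 CPM. Every celecoxib library lay above every rofecoxib library, whereas vehicle split into 2 high and 3 low libraries and overlapped both treated groups. The log2 fold change was 0.44 ± 0.27 (SE) for celecoxib against vehicle, -0.39 ± 0.28 for rofecoxib against vehicle and 0.84 ± 0.28 for celecoxib against rofecoxib. Their adjusted p by edgeR's test were 0.540, 1.0 and 0.649. As a fold, celecoxib stood at 1.79 times rofecoxib, with a 95% interval of 1.19 to 2.70 that covers this gene alone and not the number of genes tested.

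Sqle, the squalene epoxidase and a control point of the late pathway, followed the same libraries. Its level was 59.4, 47.5, 40.2, 46.7 and 29.5 CPM in celecoxib 1 to 5. In rofecoxib 1 to 5 it was 30.7, 29.0, 30.8, 23.8 and 34.0 CPM. In vehicle 1 to 5 it was 40.8, 59.2, 25.4, 29.8 and 24.6 CPM. Celecoxib 5 lay within the rofecoxib range and the other 4 celecoxib libraries lay above it, and vehicle 2 came close to celecoxib 1. Sqle had a log2 fold change of 0.31 ± 0.23 for celecoxib against vehicle (adjusted p = 0.625 by edgeR's test), -0.28 ± 0.23 for rofecoxib against vehicle (adjusted p = 1.0) and 0.59 ± 0.23 for celecoxib against rofecoxib (adjusted p = 0.673).

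Lss closes the oxidised squalene chain into lanosterol, the first sterol. Celecoxib 1 to 5 held 36.6, 29.0, 27.5, 27.8 and 24.8 CPM. Rofecoxib 1 to 5 held 22.7, 20.9, 22.6, 20.9 and 22.9 CPM, and vehicle 1 to 5 held 27.4, 28.7, 19.5, 22.9 and 21.2 CPM. The celecoxib and rofecoxib libraries did not overlap, vehicle overlapped both, and celecoxib 1 and 2 lay above every vehicle library. Lss had the smallest unadjusted p of the members in both celecoxib comparisons. Its log2 fold change was 0.28 ± 0.11 against vehicle (adjusted p = 0.332 by edgeR's test) and 0.41 ± 0.11 against rofecoxib (adjusted p = 0.649), and -0.12 ± 0.11 for rofecoxib against vehicle (adjusted p = 1.0).

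Hsd17b7 encodes a ketosterol reductase of the demethylation steps after lanosterol, and the same enzyme can also act on sex steroids. It had 19.4, 10.3, 8.50, 12.2 and 6.41 CPM in celecoxib 1 to 5. Rofecoxib 1 to 5 held 6.97, 6.51, 6.97, 5.94 and 7.05 CPM. Vehicle 1 to 5 held 8.42, 14.3, 6.62, 5.49 and 5.71 CPM. Celecoxib 1 was the highest of all 15 libraries and celecoxib 5 lay inside the rofecoxib range. The fit gave a log2 fold change of 0.49 ± 0.29 for celecoxib against vehicle (adjusted p = 0.521 by edgeR's test). It was -0.28 ± 0.29 for rofecoxib against vehicle and 0.76 ± 0.29 for celecoxib against rofecoxib, with edgeR adjusted p of 1.0 and 0.659. Without celecoxib 1 the value against vehicle was 0.21, and without vehicle 2 it was 0.79.

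Cyp51, the demethylase that acts on lanosterol, showed little of this ordering. It held 35.0, 29.1, 26.8, 38.6 and 29.5 CPM in celecoxib 1 to 5. Rofecoxib 1 to 5 held 26.6, 28.2, 26.4, 22.6 and 32.3 CPM, and vehicle 1 to 5 held 33.2, 51.0, 20.02, 29.6 and 24.0 CPM. All 3 groups overlapped, and vehicle held both the highest and the lowest library. The log2 fold change of celecoxib against vehicle was 0.01, with a 95% interval of -0.42 to 0.44, and its sign turned under several alternatives. The value was -0.21 ± 0.20 for rofecoxib against vehicle and 0.22 ± 0.20 for celecoxib against rofecoxib.

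Insig1, the sterol-sensing brake, was at a like mean level in celecoxib and vehicle. It held 48.4, 50.9, 39.4, 54.6 and 34.5 CPM in celecoxib 1 to 5. The rofecoxib libraries held 53.4, 36.3, 34.7, 33.3 and 34.8 CPM, and vehicle 1 to 5 held 46.8, 59.9, 36.3, 51.2 and 34.6 CPM. In rofecoxib 4 libraries lay close together and rofecoxib 1 lay far above them. The log2 fold change was -0.01 for celecoxib against vehicle, with a 95% interval of -0.38 to 0.37. It was -0.25 ± 0.18 for rofecoxib against vehicle and 0.24 ± 0.18 for celecoxib against rofecoxib.

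Srebf2, the gene of the factor itself, was the most abundant member. It held 175, 178, 146, 173 and 149 CPM in celecoxib 1 to 5. Rofecoxib 1 to 5 held 139, 144, 151, 135 and 152 CPM, and vehicle 1 to 5 held 171, 196, 104, 134 and 127 CPM. The groups overlapped, and vehicle again held the highest and the lowest library. On the log2 scale the fold change was 0.16 ± 0.13 for celecoxib against vehicle, -0.02 ± 0.13 for rofecoxib against vehicle and 0.18 ± 0.13 for celecoxib against rofecoxib. For Cyp51, Insig1 and Srebf2 the adjusted p by edgeR's test lay between 0.656 and 0.994 against vehicle for celecoxib, at 1.0 for rofecoxib, and between 0.783 and 0.829 for celecoxib against rofecoxib.

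**Figure D2:**
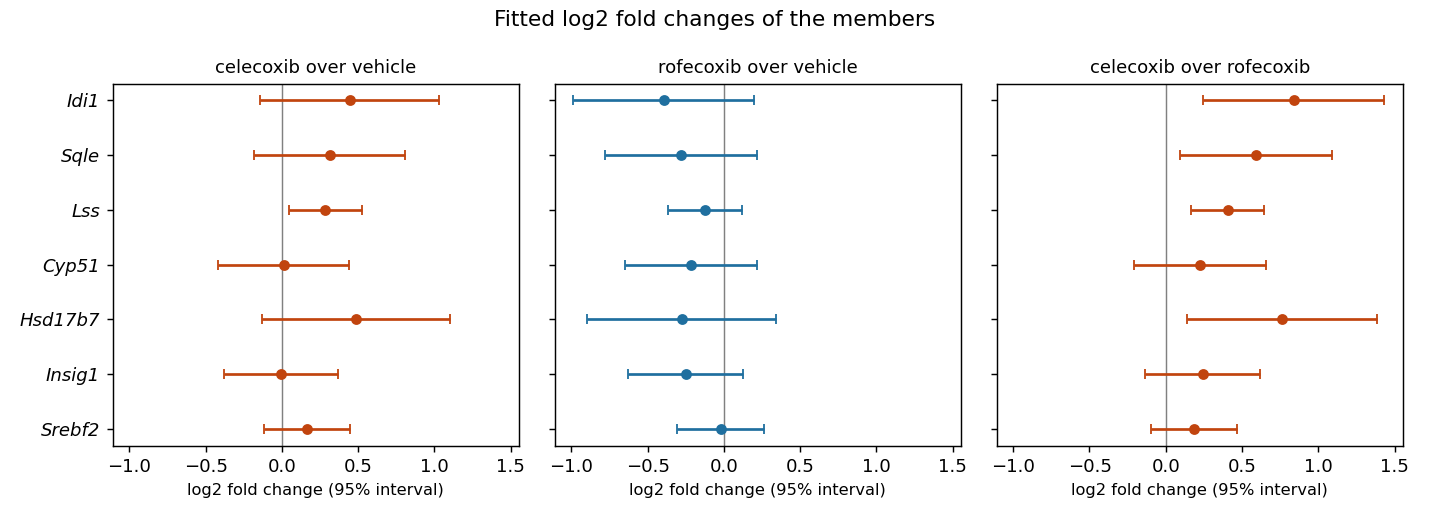
Log2 fold change (x axis) of each member by the edgeR fit in 3 panels, celecoxib over vehicle, rofecoxib over vehicle and celecoxib over rofecoxib, with points as estimates and bars as 95% intervals per gene. The intervals of Idi1, Sqle, Lss and Hsd17b7 clear 0 in the celecoxib over rofecoxib panel, where 6.96% of all genes had an unadjusted p under 0.05.

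Counted together, 6 of 7 members had a positive log2 fold change for celecoxib against vehicle (51.4% of all genes), 0 of 7 for rofecoxib against vehicle (49.7%) and 7 of 7 for celecoxib against rofecoxib (51.8%). Their median log2 fold change was 0.28, -0.25 and 0.41 in these comparisons, beside medians of 0.01, -0.00067 and 0.01 over all genes tested. Without vehicle 2, 3 of 7 members had a positive log2 fold change for rofecoxib against vehicle. The comparisons share libraries, those against vehicle the vehicle libraries and the third one the treated libraries, so the counts are not separate evidence. The members were also chosen with earlier results of these data known. They varied together across libraries, with a median r of 0.797 over pairs, so they do not count as 7 separate genes beside the shares of all genes. At an unadjusted p under 0.05 there were 1 of 7 members for celecoxib against vehicle (12.5% of all genes), 0 of 7 for rofecoxib against vehicle (5.18%) and 4 of 7 for celecoxib against rofecoxib (6.96%). The 4 were Idi1, Sqle, Lss and Hsd17b7, all higher in celecoxib (4.05% of all genes were higher at that p). Without celecoxib 1 that count was 2, and it was also 2 without the 4 libraries of high nerve markers and 1 with celecoxib 2 left out besides these. It was 3 without rofecoxib 4 and by limma-voom with sample weights. Without rofecoxib 1 and in the 10 libraries of the comparison alone it was 5. For celecoxib against vehicle the count was 5 without vehicle 2, 2 without celecoxib 5, and 0 without celecoxib 1, vehicle 3, vehicle 5 or the 4 or 5 libraries of high nerve markers. That count was also 0 with adipocyte markers as a covariate, by limma-voom with sample weights and in the 10 libraries of the comparison alone. With the replicate block it was 2. For rofecoxib against vehicle it was 1 without rofecoxib 1. Members whose groups did not overlap numbered 0 of 7 for celecoxib against vehicle (1.3% of all genes), 0 of 7 for rofecoxib against vehicle (1.16%) and 2 of 7, Idi1 and Lss, for celecoxib against rofecoxib (1.32%, and 0.687% with celecoxib the higher).

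Single libraries carried part of these medians. For celecoxib against vehicle the median was 0.19 without celecoxib 1, 0.16 with adipocyte markers as a covariate and 0.14 by limma-voom with sample weights. For rofecoxib against vehicle it was -0.02 without vehicle 2 and between -0.33 and -0.19 without any other single library of those 2 groups. For celecoxib against rofecoxib it was between 0.31 and 0.47 whichever library of these groups was left out, and all 7 members kept a positive sign each time. The middle library of Idi1 stood at 6.51 CPM in rofecoxib and 6.47 CPM in vehicle, and that of Hsd17b7 at 6.97 CPM in rofecoxib and 6.62 CPM in vehicle.

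**Figure D3:**
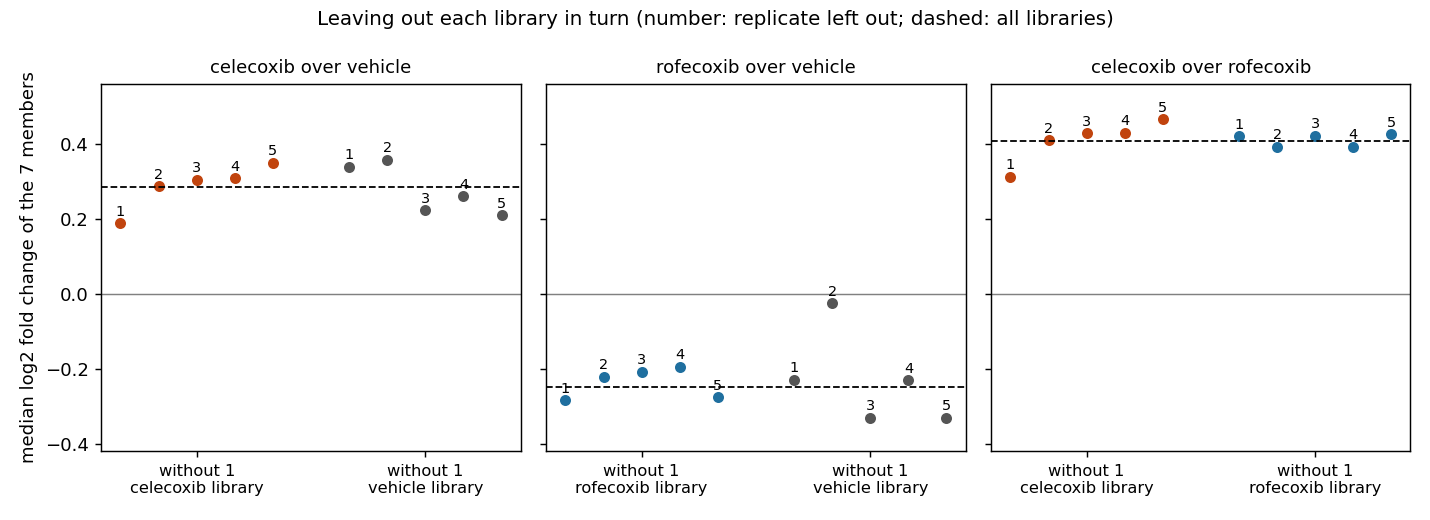
Median log2 fold change of the 7 members (y axis) after leaving out 1 library in turn, in 3 panels for celecoxib over vehicle, rofecoxib over vehicle and celecoxib over rofecoxib. Points are coloured by the group of the library left out and numbered by replicate, and the dashed line is the value with all libraries. Without vehicle 2 the rofecoxib over vehicle median is -0.02, near 0, while the celecoxib over rofecoxib points stay between 0.31 and 0.47.

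The groups also differed in how far their libraries lay from each other. The SD of log2 CPM over 5 libraries had a median over the members of 0.276 in celecoxib, 0.103 in rofecoxib and 0.511 in vehicle, beside 0.173, 0.111 and 0.148 over all genes of at least 1 CPM. Members therefore spread like other genes in rofecoxib and more widely than them in vehicle and celecoxib. The SD was smaller in rofecoxib than in vehicle for 7 of 7 members and for 66.4% of all genes. The ratio of rofecoxib to vehicle SD had a median of 0.271 over the members and 0.785 over all genes. No test was run on these spreads.

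The members varied together from library to library, also once group means were taken out. Over the 15 libraries the 21 pairs of members had Pearson r of 0.586 to 0.958 and Spearman rho of 0.475 to 0.925. After each group's mean was taken out r was 0.607 to 0.943, and without the 2 libraries farthest from the median it was 0.430 to 0.927. These are descriptions only, over libraries that differed in nerve and fat markers and whose depth before any unrecorded step is unknown. The mean standardised level of the members was highest in vehicle 2 (1.63 SD above the gene mean), celecoxib 1 (1.55), celecoxib 4 (0.98) and celecoxib 2 (0.78). It was lowest in vehicle 3 (-1.21), vehicle 5 (-1.02) and rofecoxib 4 (-0.99). The extremes at both ends were thus vehicle libraries.

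Among the genes whose level was most like the members' mean, of 13218 compared, were Sc4mol, the sterol methyl oxidase now called Msmo1 (r = 0.950), and Fdps, which makes farnesyl diphosphate (r = 0.913). The cholesterol carrier gene Stard4 (r = 0.911), the sterol desaturase gene Sc5d (r = 0.891) and the mevalonate kinase gene Mvk (r = 0.864) were among them too. So were Gramd2 (r = 0.867), the tubulin gene Tubb5 (r = 0.860) and Pole, a subunit of DNA polymerase epsilon (r = 0.809). These 8 genes are the reported part of 10 chosen, and 5 of the 8 were in the pathway lists. The lists hold 50 of the 11879 genes that could be chosen, counted before any gene was left unreported. These shares are therefore over unlike sets, and the lists were drawn up with earlier results of these data known. The median r over all genes compared was -0.00057. Within groups the r of these 8 genes lay between 0.762 and 0.946. Not all enzymes of the pathway followed as closely: r was 0.660 for Fdft1, 0.299 for Lbr, 0.048 for Ebp and -0.101 for Acat2.

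**Figure D4:**
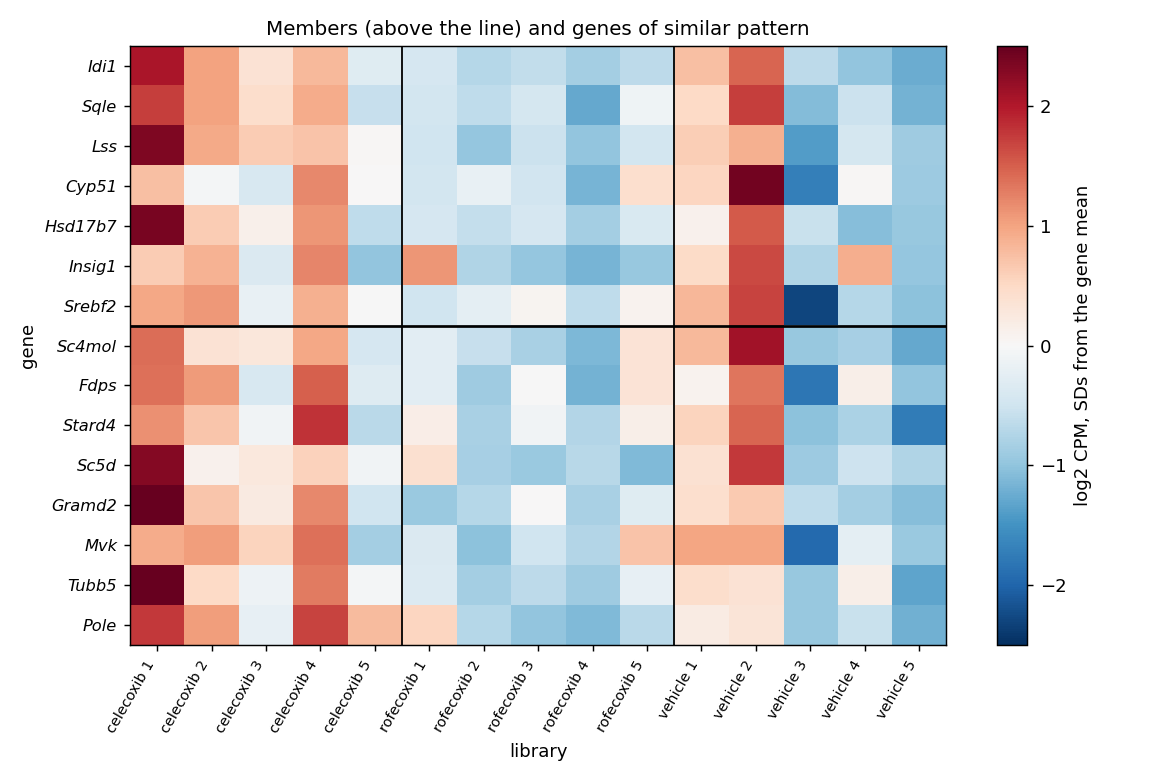
Log2 CPM of the 7 members (above the line) and of 8 genes of similar pattern (below it), in SDs from each gene's mean, for celecoxib, rofecoxib and vehicle libraries 1 to 5 from left to right. Vehicle 2 and celecoxib 1 are red (high) in nearly every row and vehicle 3 and vehicle 5 blue (low), while rofecoxib columns are mostly pale to blue, with Insig1 in rofecoxib 1 their deepest red.

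The 15 other synthesis enzymes on a separate list had 0 genes called higher and 0 lower in each comparison. Their median log2 fold change was 0.11 for celecoxib against vehicle, with 11 of 15 positive, -0.08 for rofecoxib against vehicle, with 0 of 15 positive, and 0.19 for celecoxib against rofecoxib, with 12 of 15 positive. Acat2, the cytosolic thiolase at the entry of the pathway, stood apart from the members. It averaged 25.1 ± 4.31 CPM in celecoxib, 25.7 ± 3.53 in rofecoxib and 34.2 ± 6.58 in vehicle, with log2 fold changes of -0.44 ± 0.14 (adjusted p = 0.276 by edgeR's test) for celecoxib and -0.41 ± 0.14 (adjusted p = 0.896) for rofecoxib. Fdft1, the squalene synthase, averaged 68.5 ± 37.1 CPM in celecoxib, 45.3 ± 3.52 in rofecoxib and 47.8 ± 8.28 in vehicle, and celecoxib 1 alone held 131 CPM. Ebp, a sterol isomerase, was steady at 20.8 ± 0.856, 20.7 ± 1.02 and 22.1 ± 0.742 CPM in the same order. Other enzymes among those of smallest p had log2 fold changes of 0.22 for Sc5d and 0.11 for Lbr, a sterol reductase of the nuclear envelope, in celecoxib against rofecoxib, and of -0.10 for Ebp and -0.11 for Sc5d in rofecoxib against vehicle.

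The 10 other regulators of SREBP had median log2 fold changes of -0.0093, -0.0038 and 0.0036 for celecoxib over vehicle, rofecoxib over vehicle and celecoxib over rofecoxib, with 0 genes called in either direction. Srebf1, which encodes the sister factor that drives fatty acid synthesis, averaged 111 ± 16.4 CPM in celecoxib, 127 ± 19.7 in rofecoxib and 143 ± 15.0 in vehicle. Its log2 fold change for celecoxib against vehicle was -0.37, in contrast with 0.16 for Srebf2, a difference that was not tested. The endoplasmic reticulum protein gene Erlin1 had -0.23 for celecoxib against vehicle and -0.17 for celecoxib against rofecoxib. Insig2, the second Insig gene, averaged 79.2 ± 19.9 CPM in celecoxib, 71.9 ± 3.20 in rofecoxib and 71.1 ± 7.64 in vehicle, and celecoxib 1 alone reached 114 CPM.

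Of 15 uptake and transport genes 14 were tested and 0 were called in either direction, with median log2 fold changes of -0.08, -0.06 and -0.01 in the same order of comparisons. The ubiquitin ligase gene Mylip averaged 38.1 ± 4.94 CPM in celecoxib, 45.1 ± 2.98 in rofecoxib and 47.2 ± 4.15 in vehicle, and its log2 fold change was -0.31 for celecoxib against vehicle (adjusted p = 0.269 by edgeR's test). Over the 15 libraries its r with the members' mean was -0.525. The fatty acid receptor gene Cd36, abundant in fat, had log2 fold changes of -0.78 for celecoxib and -0.44 for rofecoxib against vehicle, and these were 0.06 and 0.11 with adipocyte markers as a covariate. The lysosomal lipase gene Lipa had -0.15 for celecoxib against vehicle, and the lysosomal cholesterol exporter gene Npc1 -0.14 for celecoxib against rofecoxib. The lipoprotein receptor gene Lrp8 had 0.33 and the sterol carrier gene Stard5 -0.34 for rofecoxib against vehicle.

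Genes of efflux, esterification and the sterol receptor LXR had 0 of 12 called in either direction, with medians of -0.08, -0.08 and -0.04. Nr1h3, which encodes LXR alpha, averaged 14.2 ± 2.65 CPM in celecoxib, 15.7 ± 2.39 in rofecoxib and 20.9 ± 4.98 in vehicle. Its log2 fold change was -0.56 for celecoxib against vehicle (adjusted p = 0.275 by edgeR's test) and -0.41 for rofecoxib against vehicle. The lipoprotein gene Apoe had -0.42 for celecoxib against vehicle, and 0.22 with the adipocyte covariate. Abca1, the exporter that loads cholesterol on lipoprotein, averaged 48.1 ± 5.55 CPM in celecoxib, 48.4 ± 8.04 in rofecoxib and 56.3 ± 13.5 in vehicle. Nceh1, a cholesteryl ester hydrolase gene, had 0.33 for celecoxib against vehicle, the oxysterol hydroxylase gene Cyp27a1 -0.14 for rofecoxib against vehicle and the oxysterol-binding protein gene Osbp -0.12 for celecoxib against rofecoxib.

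Markers of other cell types were set beside the member pattern. Over the 15 libraries the members' mean had r = 0.005 with the Schwann cell list, -0.003 with the sympathetic neuron list, 0.010 with smooth muscle, -0.131 with endothelium and -0.079 with macrophages. It had r = 0.374 with B and T lymphocytes, the highest of the 10 lists, 0.196 with skeletal and cardiac muscle and -0.154 with mesothelium. The lymphocyte value rests on 1 of 6 genes and the mesothelium value on 1 of 5, since the others did not pass the filter on low counts. All 6 lymphocyte genes together summed to between 0.427 and 2.06 CPM per library, near the floor. Fat markers had their lowest mean in celecoxib and their highest in vehicle, the groups overlapped, and no test was run on the lists. The brown and white adipocyte lists averaged 4.99 ± 0.734 log2 CPM in celecoxib, 5.42 ± 0.437 in rofecoxib and 6.16 ± 0.592 in vehicle. All 8 brown and all 10 white markers passed the filter on low counts, and the summed brown list ranged from 126 to 601 CPM in celecoxib, 265 to 548 in rofecoxib and 460 to 1761 in vehicle. The members' mean had r = -0.312 with the brown and -0.170 with the white list. With the adipocyte lists as a covariate the member median was 0.16 for celecoxib against vehicle, -0.26 for rofecoxib against vehicle and 0.40 for celecoxib against rofecoxib. Beyond these values, the part of fat in the member levels was not tested. The nerve lists averaged 2.37 ± 2.09, 2.38 ± 1.95 and 2.38 ± 1.28 log2 CPM in celecoxib, rofecoxib and vehicle. Without the 4 libraries highest in nerve markers the medians were 0.25, -0.31 and 0.46 in the 3 comparisons, and with celecoxib 2 left out too they were 0.21, -0.31 and 0.47.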

How the data were processed

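The data are poly(A) RNA-seq of thoracic aortas in 15 libraries, 5 per group. The authors deposited whole-number counts per gene with mm9 coordinates. CASAVA 1.8.2, STAR 2.5.2a and mm9 are named per the submitters' processing notes. For the counting tool, strand handling and annotation release, the sources used here give nothing, and reads of overlapping or near-identical genes may be split between them. Library totals lie within 0.0971% of each other, a closeness for which the labels record no step, so the depth before any such step is unknown. Construction ran over several days per the labels, but the day of each library is not given, so no batch term could be fitted. All columns were matched to samples by title.

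One edgeR 4.0.16 quasi-likelihood fit with robust dispersions (R 4.3.3) used trimmed-mean scaling and filterByExpr, which kept 15134 genes holding 99.95% of the counts, with no covariate. Benjamini-Hochberg adjustment covered every gene tested, with a threshold of 0.05. CPM are on scaled library sizes, SE come from the fold change and its F statistic, and log2 CPM used a prior count of 2. Levels per kilobase used the length of the principal transcript in GENCODE vM21, and promoters came from RefSeq. The fit was also run on simulated counts. These were drawn gene by gene without variation shared between genes, so that run gives no error rate for these data. No libraries of a group looked like duplicates, since their chi-square per gene was at least 13.8 over 13853 genes.

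The members and the lists were chosen with earlier results of these data known. Named genes were all members, the 3 genes of smallest p of each pathway list in each comparison, and the 10 genes of at least 1 CPM most like the members' mean; some genes so chosen are not reported here. Alternatives covered 2 other scalings, no filter, DESeq2 1.42.0, limma-voom (limma 3.58.1) with sample weights, 10 libraries alone, a replicate block, nerve and adipocyte covariates and leaving out each library. Leaving out the 4 or 5 libraries highest in nerve markers was chosen after seeing the data.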

Additional observations from a re-analysis of the deposited data

Results flagged for a closer look

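Among the 34 genes named, 1 library stood far from the other 4 of its group in 9 of 102 groups, where chance gives about 1 in 20. For the members this happened in 1 of 21 groups: Insig1 had 53.4 CPM in rofecoxib 1, where the other rofecoxib libraries had 33.3 to 36.3 CPM. Rofecoxib 1 also stood high for Apoe, with 427 CPM where the others had 254 to 280, and for Nr1h3, with 19.9 CPM where the others had 14.3 to 15.0. The same library held 26.8 CPM of Sc5d, where the others had 22.4 to 23.5, and 2.06 CPM of Pole, where the others had 1.48 to 1.61. Celecoxib 1 stood high for Sc5d, with 33.6 CPM where the other celecoxib libraries had 25.3 to 27.3, and for Insig2, with 114 CPM where they had 67.8 to 76.6. Npc1 had 83.3 CPM in rofecoxib 2, where the others had 71.7 to 74.0, and Erlin1 had 13.4 CPM in rofecoxib 4, below the 15.5 to 16.3 of the others.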

How the results depend on the processing

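No member was called under any alternative run, with a smallest adjusted p of 0.178, for Lss in celecoxib against rofecoxib. Of 441 member values under alternatives 416 kept their sign and 25 changed it, and of 672 values of other named genes 7 changed it; for these the cause was not tested. DESeq2's Wald test called 126 genes between celecoxib and vehicle and 19 between celecoxib and rofecoxib, none of them members. edgeR called 0 to 8 genes between celecoxib and vehicle and 0 to 1 between celecoxib and rofecoxib when single libraries were left out, with 8 without celecoxib 4, 2 without vehicle 2 and 1 without celecoxib 5 in the first and 1 without celecoxib 5 in the second. On the gene's own strand alone, 1 member promoter held CCAAT.

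The log2 fold change of Cyp51 for celecoxib against vehicle was -0.0065 on library totals alone, -0.059 with the adipocyte covariate, -0.094 by limma-voom with weights and -0.082 and -0.062 without the 4 and the 5 libraries highest in nerve markers. That of Insig1 was 0.0036 with no filter and 0.071 with the adipocyte covariate. With that covariate Cd36 had 0.057 for celecoxib and 0.11 for rofecoxib against vehicle, Apoe 0.22 for celecoxib against vehicle and Nr1h3 0.031 for celecoxib against rofecoxib. Insig2 had -0.0030 for celecoxib against rofecoxib by limma-voom.

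Leaving out single libraries moved celecoxib against vehicle between -0.10 and 0.25 for Cyp51, -0.084 and 0.11 for Insig1, and -0.012 and 0.23 for Insig2. It moved rofecoxib against vehicle between -0.33 and 0.028 for Cyp51, -0.11 and 0.11 for Srebf2, and -0.39 and 0.027 for Hsd17b7. For Insig2 in celecoxib against rofecoxib the range was -0.029 to 0.20.

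Libraries of the same replicate number did not deviate together throughout: r over genes lay between -0.72 and 0.78 for 15 pairs and was over 0.1 for 6 of them, among which were all 3 pairs of replicate 1 (0.20, 0.41 and 0.35), so the numbers were not taken as pairs. With the replicate block the member medians were 0.28, -0.19 and 0.39 for celecoxib over vehicle, rofecoxib over vehicle and celecoxib over rofecoxib, with 0 members called. Under the block Insig1 had 0.00062 for celecoxib against vehicle and Srebf2 0.012 for rofecoxib against vehicle.

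With 5 libraries a group, a common biological coefficient of variation of 0.228 limits what could be called, and the intervals given cover single genes only.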
